A study of Rattus norvegicus with 6 samples.

Results

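The CC chemokine genes Ccl2, Ccl3, Ccl4, Ccl5, Ccl6, Ccl7, Ccl19, Ccl21 and Ccl22 were followed in rat liver after repeated exposure to carbon tetrachloride. The 9 genes were found by symbol, through the RefSeq accession that the array gives for each probe, among 15645 genes named in this way, and they were read by 14 of 61537 probes. Ccl4 is throughout the chemokine gene, and the chemical is written in full. The animals were male Sprague-Dawley rats, bought at 5 weeks of age from an outbred stock. Carbon tetrachloride was given at 100 mg/kg/day to 3 of them and corn oil to the other 3, and each liver was measured on 1 array. One field of the labels names 28 days and another names 9 weeks of dosing, so the length of exposure is uncertain. They do not say in what the carbon tetrachloride was dissolved.

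Chemokines are small secreted proteins that attract leukocytes along a gradient through G protein-coupled receptors, and in the CC family the first cysteines of the mature protein stand next to each other. Ccl2 and Ccl7 act through the receptor Ccr2, which brings monocytes from blood into tissue. Ccl3, Ccl4 and Ccl5 attract monocytes, T cells and natural killer cells, and Ccl3 and Ccl5 act through Ccr1 among others. Ccl19 and Ccl21 hold lymphocytes and dendritic cells in lymphoid tissue through Ccr7, and Ccl22 attracts regulatory and helper T cells through Ccr4. In injured liver, chemokine genes are known to be transcribed by resident macrophages (Kupffer cells), infiltrating monocytes, stellate cells, endothelium and hepatocytes. A whole-liver array cannot tell a change in the number of such cells from a change in RNA per cell.

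Levels are given as the log2 of the background-subtracted signal relative to the 75th percentile of the same array, so 0 is the level of that percentile, and levels of different probes are not comparable. The 75th percentile lay between 585.0 and 675.6 signal units on the carbon tetrachloride arrays and between 582.6 and 598.4 on the corn oil arrays. Between 61.9% and 64.7% of probes were well above background on the carbon tetrachloride arrays and between 65.0% and 67.3% on the corn oil arrays. The first slide held carbon tetrachloride replicate 1 and the 3 corn oil arrays, and the second slide held carbon tetrachloride replicates 2 and 3, so treatment and slide are partly confounded. Over all genes tested, 19.7% had an unadjusted p below 0.05 in limma and 15.9% were lower without overlap. All 10 hepatocyte markers were tested, 1 higher and 9 lower in direction, and 0 passed in limma, with 2 at an unadjusted p below 0.05 and 6 lower without overlap. Their summed signal, relative to each array's 75th percentile, was 3849 to 4257 in carbon tetrachloride livers against 4763 to 5055 in corn oil livers, and its part in the levels of the CC chemokine genes was not tested.

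The comparison asks which CC chemokine genes differed in liver between rats given carbon tetrachloride and rats given the vehicle. The monocyte attractants Ccl2 and Ccl7 were higher in carbon tetrachloride livers, Ccl7 by a bound only, since its corn oil levels were not well above background, and Ccl3 and Ccl21 were higher by smaller measured differences than Ccl2. Under normexp background correction Ccl7 (0.55) lay below Ccl3 (0.92) and Ccl21 (0.88). Ccl4 was slightly higher, Ccl5 was lower, and Ccl6, Ccl19 and Ccl22 overlapped between the groups. Of the 9 genes, 0 passed an adjusted p below 0.05 in limma, where 0.637% of the 11939 genes tested did, 0.561% higher and 0.0754% lower. At an unadjusted p below 0.05 there were 6 of the 9, 5 higher and 1 lower, against 19.7% of all genes, 9.95% higher and 9.77% lower. The groups did not overlap for the same 6, 5 higher and 1 lower, where 27.4% of all genes did not overlap, 11.5% higher and 15.9% lower. One of the 14 probes, a probe of Ccl7, passed when every probe was tested by itself, where 0.341% of 40478 probes did, 0.287% higher. Ccl7 entered the test through the carbon tetrachloride arrays alone, so these counts describe the genes and support nothing further.

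**Figure D1:**
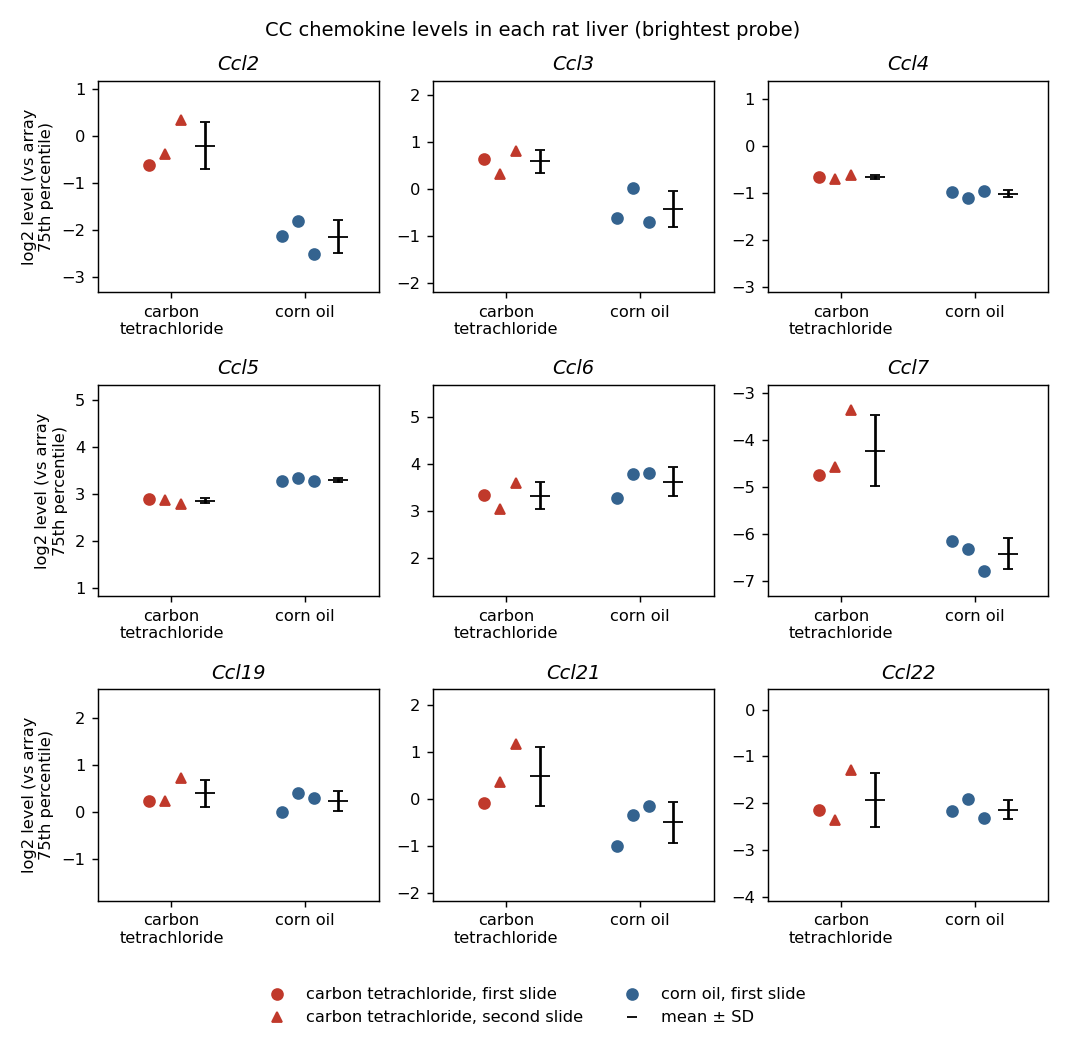
Log2 level of each CC chemokine gene on its brightest probe, relative to the 75th percentile of the array (y axis, same span in each panel), in the 3 carbon tetrachloride and 3 corn oil livers. Circles are arrays of the first slide, triangles arrays of the second, and bars are the mean ± SD. Ccl2, Ccl4, Ccl5 and Ccl7 are separated by more than the range of either group, and Ccl5 is the gene whose carbon tetrachloride arrays all lie below the corn oil arrays.

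Ccl2, the monocyte chemoattractant protein, was at -0.61, -0.37 and 0.35 in carbon tetrachloride replicates 1, 2 and 3, against -2.13, -1.80 and -2.51 in corn oil replicates 1, 2 and 3. The lowest carbon tetrachloride liver was above the highest corn oil liver, and all 6 arrays were well above background. The means were -0.21 ± 0.50 in carbon tetrachloride livers and -2.14 ± 0.35 in corn oil livers (SD, n = 3 each). The difference of 1.93 ± 0.29 (SE, 95% interval 1.22 to 2.64) is 3.82-fold and larger than the range within either group, 0.96 among carbon tetrachloride livers and 0.71 among corn oil livers. It stood just outside the threshold (adjusted p = 0.0558), and the absolute log2 difference was larger than that of 99.1% of genes tested. Under 7 of 20 other settings Ccl2 passed, and the adjusted p over them ranged between 0.0348 and 0.254.

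Ccl7, monocyte chemoattractant protein 3, was read by 2 probes. On probe A_44_P1022002, the brighter by its mean over all arrays, the level was -4.74, -4.58 and -3.37 in carbon tetrachloride livers, against -6.16, -6.31 and -6.80 in corn oil livers. On probe A_44_P391296 it was -4.33, -4.54 and -3.55 in carbon tetrachloride livers, against -6.94, -7.33 and -7.53 in corn oil livers. Both probes were well above background on 3 of 3 carbon tetrachloride arrays and on 0 of 3 corn oil arrays, so the corn oil level is known only as a bound. The bound sets the carbon tetrachloride mean against, per corn oil array, the higher of the probe's own signal and the lowest signal well above background. By it Ccl7 was at least 2.49-fold higher in carbon tetrachloride livers on the first probe and at least 2.64-fold higher on the second.

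The measured difference for Ccl7 was 2.198 ± 0.39 (SE) on probe A_44_P1022002, which stood for the gene (adjusted p = 0.0678), with means of -4.23 ± 0.75 in carbon tetrachloride livers and -6.42 ± 0.33 in corn oil livers (SD, n = 3 each). On probe A_44_P391296 it was 3.12 ± 0.29, with means of -4.14 ± 0.52 and -7.26 ± 0.30 in carbon tetrachloride and corn oil livers (SD, n = 3 each), and this probe passed over all probes (adjusted p = 0.0230), having entered the test through the carbon tetrachloride arrays alone. With corn oil at background, neither measured difference is a fold change. The call on that probe ended with normexp background correction (0.41, adjusted p = 0.147), with slide as a fixed block (2.93, adjusted p = 0.182; as a random block 3.13, adjusted p = 0.0193) and without any 1 of the arrays other than carbon tetrachloride replicate 3 (2.99 to 3.32, adjusted p = 0.0656 to 0.0987). The mean of both probes differed by 2.66 and passed over all genes (adjusted p = 0.0320), and the first probe passed without carbon tetrachloride replicate 3 (1.77, adjusted p = 0.0353).

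Ccl2 and Ccl7 neighbour each other in the gene table of the GRCr8 assembly, with Ccl11, the eosinophil attractant eotaxin, next after Ccl7. On its brighter probe Ccl11 was at -4.07, -4.83 and -4.95 in carbon tetrachloride livers, against -4.17, -4.38 and -4.95 in corn oil livers (difference -0.12 ± 0.30, SE; adjusted p = 0.851). The groups overlapped on this probe of Ccl11, while its neighbour Ccl7 did not overlap on either probe.

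The promoter of Ccl7 is shown because a probe of the gene passed, having entered the test through the carbon tetrachloride arrays alone. Those of Ccl21 and Ccl6 stand beside it as a gene that was also higher and a gene that was not. Promoter sequence was matched for 5 of the 9 genes (Ccl6, Ccl7, Ccl19, Ccl21 and Ccl22, RefSeq, GRCr8), and Ccl2, Ccl3, Ccl4 and Ccl5 are named only. Each line holds the 250 bases before the annotated start, 5′ to 3′ on the gene's strand, and capitals mark matches to the motifs searched on both strands.
Ccl7, chr10:67513845-67514094, plus strand: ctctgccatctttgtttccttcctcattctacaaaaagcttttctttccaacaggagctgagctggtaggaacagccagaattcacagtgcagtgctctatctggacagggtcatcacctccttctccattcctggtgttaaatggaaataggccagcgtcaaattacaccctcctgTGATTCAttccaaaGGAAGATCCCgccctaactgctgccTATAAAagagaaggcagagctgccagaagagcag
Ccl21, chr5:61777516-61777765, minus strand: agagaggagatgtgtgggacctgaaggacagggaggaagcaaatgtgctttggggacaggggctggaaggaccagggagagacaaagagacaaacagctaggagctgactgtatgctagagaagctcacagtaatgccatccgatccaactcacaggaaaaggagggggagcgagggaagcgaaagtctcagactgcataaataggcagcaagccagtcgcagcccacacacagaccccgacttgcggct
Ccl6, chr10:68883367-68883616, minus strand: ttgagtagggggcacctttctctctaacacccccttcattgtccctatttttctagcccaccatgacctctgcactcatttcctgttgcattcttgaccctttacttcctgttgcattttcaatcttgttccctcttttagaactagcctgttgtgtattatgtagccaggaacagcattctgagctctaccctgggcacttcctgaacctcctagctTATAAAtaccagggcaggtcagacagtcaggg

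The motifs searched were a form of the NF-kB site, TGANTCA, the site of AP-1, and TATAAA, the TATA box. NF-kB and AP-1 are transcription factors known to switch on chemokine genes. The Ccl7 window held one match to each: TGATTCA at 73 to 67 bases before the start, GGAAGATCCC, the NF-kB form read on the opposite strand, at 59 to 50 bases, and TATAAA at 34 to 29 bases. No match overlapped another. The Ccl6 window held TATAAA at 32 to 27 bases before the start. No match was found in the windows of Ccl19, Ccl21 and Ccl22. Among 33469 promoter windows of the same length, 1.08% held the NF-kB form, 6.34% held TGANTCA and 12.93% held TATAAA. The part of these matches in the levels of the genes was not tested.

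Ccl3, macrophage inflammatory protein 1 alpha, was at 0.65, 0.33 and 0.81 in carbon tetrachloride livers, against -0.61, 0.02 and -0.69 in corn oil livers. The groups did not overlap, with corn oil replicate 2 the nearest to the carbon tetrachloride livers. The means were 0.59 ± 0.24 in carbon tetrachloride livers and -0.43 ± 0.39 in corn oil livers (SD, n = 3 each). The difference of 1.02 ± 0.23 (SE, 95% interval 0.47 to 1.57), or 2.03-fold, did not pass (adjusted p = 0.0952, and 0.0659 to 0.321 over 20 other settings).

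Ccl4, macrophage inflammatory protein 1 beta and the neighbour of Ccl3 in the gene table, had a much smaller difference. On its brighter probe it was at -0.66, -0.69 and -0.61 in carbon tetrachloride livers, against -0.97, -1.10 and -0.96 in corn oil livers. On its other probe it was at -0.72, -0.76 and -0.62 in carbon tetrachloride livers, against -0.84, -1.05 and -1.03 in corn oil livers. The groups did not overlap on either probe, and the range among carbon tetrachloride livers on the brighter probe, 0.079, was the smallest of the 9 genes. The difference was 0.35 ± 0.10 (SE; adjusted p = 0.133) on the brighter probe and 0.27 ± 0.12 on the other (adjusted p = 0.319 over all probes).

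Ccl5, known as RANTES and made by T cells and natural killer cells among others, was lower in carbon tetrachloride livers on both probes. On the brighter probe it was at 2.90, 2.87 and 2.80 in carbon tetrachloride livers, against 3.29, 3.35 and 3.28 in corn oil livers. On the other it was at 2.01, 1.95 and 1.98 in carbon tetrachloride livers, against 2.498, 2.496 and 2.431 in corn oil livers. Every carbon tetrachloride liver lay below every corn oil liver, and within a group the brighter probe ranged over only 0.11 and 0.067 in carbon tetrachloride and corn oil livers. The differences were -0.45 ± 0.09 (SE; adjusted p = 0.0828 over all genes) and -0.50 ± 0.10 (adjusted p = 0.110 over all probes), so the probes differed from each other by 0.051. Ccl5 passed under 1 of 20 other settings, normexp background correction (-0.53, adjusted p = 0.0449). Of 12 T cell and natural killer cell markers, 1, the protease gene Gzma, passed, lower (-1.32, adjusted p = 0.0252), 5 were higher and 7 lower in all. The median difference of that list was -0.07, against -0.05 over all genes tested, of which 0.0754% passed as lower. The summed signal of that list, relative to each array's 75th percentile, was 4.90 to 5.22 in carbon tetrachloride livers, against 5.12 to 7.25 in corn oil livers, and its part in the level of Ccl5 was not tested. These sums overlapped between the groups. Without the list's brightest gene, Nkg7, they did not, at 3.633 to 3.759 in carbon tetrachloride livers against 3.877 to 5.635 in corn oil livers. Without both Nkg7 and Gzma the sums overlapped, at 2.92 to 3.11 in carbon tetrachloride livers against 2.33 to 3.82 in corn oil livers.

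Ccl6, a rodent chemokine that acts through Ccr1 in the mouse, was at 3.34, 3.04 and 3.61 in carbon tetrachloride livers, against 3.28, 3.79 and 3.82 in corn oil livers. The groups overlapped, and the difference of -0.30 ± 0.21 had a 95% interval of -0.80 to 0.20 (adjusted p = 0.457). In the gene table Ccl6 stands next to Ccl3, and Ccl4 follows Ccl3. Of these neighbours, Ccl3 had a positive difference whose interval excluded 0, and Ccl4 a smaller one on its brighter probe. On the other Ccl4 probe the 95% interval, from the fit over all probes, spans 0 (-0.0059 to 0.55), as does the interval of Ccl6.

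**Figure D2:**
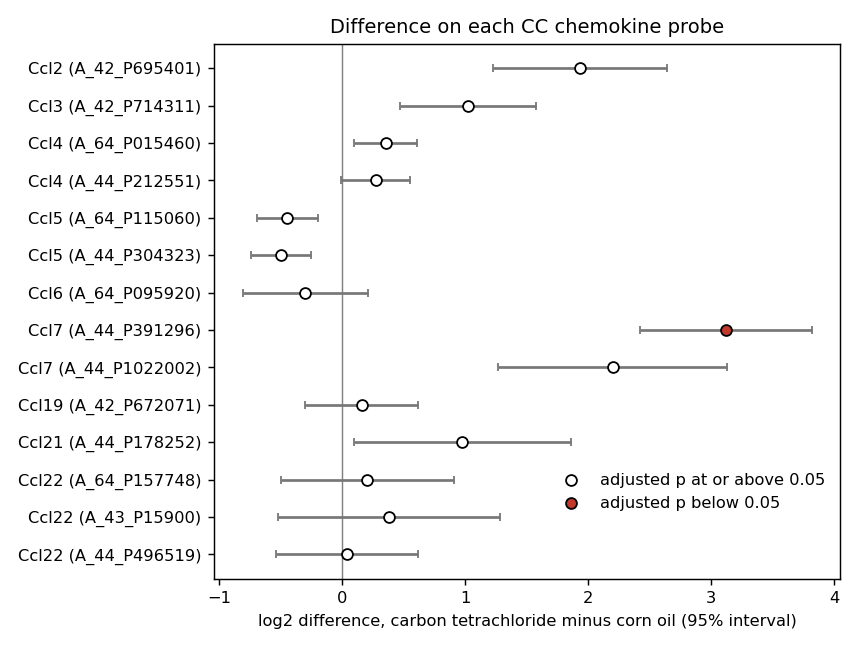
Log2 difference between carbon tetrachloride and corn oil livers on each of the 14 probes of the 9 genes (x axis), with the 95% interval of limma's fit over all probes. The filled point is the Ccl7 probe that passed (3.12), and the paired probes of Ccl4 and of Ccl5 lie close to each other.

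Of the Ccr7 ligands, Ccl21 was higher in carbon tetrachloride livers and Ccl19 overlapped. Ccl21, which lymphatic vessels and lymphoid stroma display, was at -0.10, 0.36 and 1.16 in carbon tetrachloride livers, against -1.002, -0.34 and -0.16 in corn oil livers. The groups did not overlap, by a margin of 0.06 between carbon tetrachloride replicate 1 and corn oil replicate 3, and the ranges of 1.26 and 0.84 in carbon tetrachloride and corn oil livers were near the size of the difference. The means were 0.47 ± 0.64 in carbon tetrachloride livers and -0.50 ± 0.44 in corn oil livers (SD, n = 3 each), a difference of 0.98 ± 0.37 (SE; adjusted p = 0.225). The value was 0.63 without carbon tetrachloride replicate 3. Ccl19 was at 0.23, 0.23 and 0.73 in carbon tetrachloride livers, against -0.001, 0.41 and 0.31 in corn oil livers, a difference of 0.16 ± 0.19 with a 95% interval of -0.29 to 0.61 (adjusted p = 0.661). Of 8 markers of lymphatic and sinusoidal endothelium, 6 were tested, 3 higher and 3 lower in direction, and 0 passed, with 1 at an unadjusted p below 0.05, Kdr (-0.38). Of all genes tested, 19.7% had an unadjusted p below 0.05 in limma. The median difference of these endothelial markers was 0.05. Their summed signal was 33.2 to 39.5 in carbon tetrachloride livers against 40.6 to 48.0 in corn oil livers, and without Kdr it overlapped, at 7.10 to 9.58 in carbon tetrachloride livers against 7.05 to 8.12 in corn oil livers. The part of these markers in the level of Ccl21 was not tested.

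Ccl22, the macrophage-derived chemokine, had 3 probes, and the groups overlapped on each. On the brightest it was at -2.14, -2.36 and -1.28 in carbon tetrachloride livers, against -2.17, -1.91 and -2.32 in corn oil livers. Carbon tetrachloride replicate 3 was the highest of the 6 arrays on all 3 probes, at -1.28, -2.41 and -4.04. The differences were 0.21 ± 0.29, 0.38 ± 0.37 and 0.04 ± 0.24 (SE; adjusted p over all probes 0.752, 0.640 and 0.948).

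The carbon tetrachloride livers were not alike in these genes. Replicate 3 was the highest of the 3 for 8 of the 9 genes, Ccl5 being the exception, whereas it was the highest for 36.4% of all genes tested. Replicate 2 was the lowest for 5 of the 9, against 38.0% of all genes. The value with slide as a block rests on carbon tetrachloride replicate 1 and the 3 corn oil livers, and its difference equals that within the first slide. It was 1.54 for Ccl2 (adjusted p = 0.254), 1.69 for Ccl7 (adjusted p = 0.294), 1.08 for Ccl3 (adjusted p = 0.314), 0.35 for Ccl4 (adjusted p = 0.405) and -0.40 for Ccl5 (adjusted p = 0.326). For Ccl21 it was 0.40 (adjusted p = 0.728), for Ccl6 it was -0.29 (adjusted p = 0.731), and for Ccl19 and Ccl22 it was -0.0052 in each case. Its size therefore rests on 1 carbon tetrachloride liver. Ccl4, Ccl5 and Ccl6 thus differed by nearly as much on the first slide alone as over both slides, and Ccl3 by slightly more. Ccl2, Ccl21 and the brighter probe of Ccl7 differed by less. On the other Ccl7 probe the difference was 2.93 on the first slide alone and 3.12 over both slides.

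**Figure D3:**
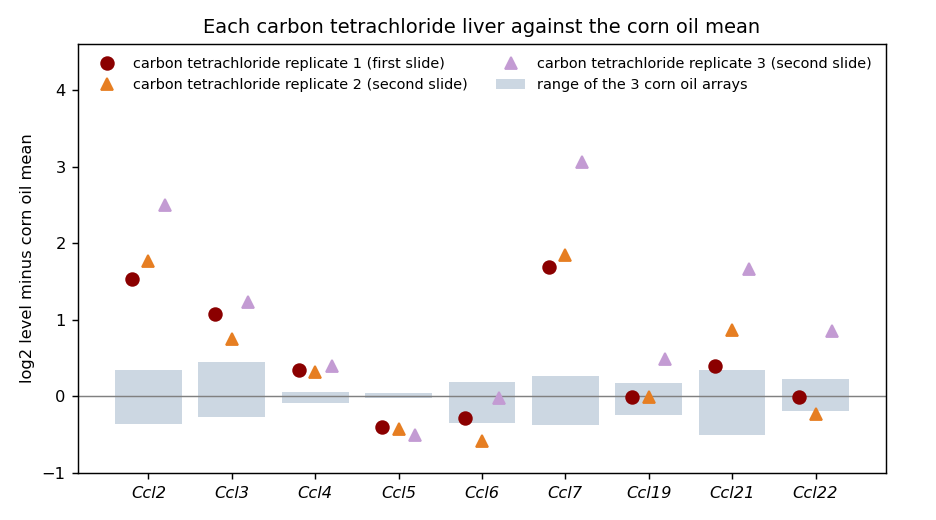
Log2 level of each carbon tetrachloride liver minus the corn oil mean (y axis) for each of the 9 genes. Circles are the array of the first slide, triangles those of the second, and shaded bands are the range of the 3 corn oil arrays. Carbon tetrachloride replicate 3 is the highest of the 3 for every gene except Ccl5, and all 3 lie above the band for Ccl2, Ccl3, Ccl4, Ccl7 and Ccl21.

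Of 14 genes for CC receptors and related decoy receptors, 11 had a probe, 8 were tested and 0 passed in limma, with 1 at an unadjusted p below 0.05. Each gene of this and the following lists is given on its brightest tested probe unless a probe is named. Beside the counts of these lists stand 19.7% of all genes at an unadjusted p below 0.05 in limma, 9.95% higher and 9.77% lower. Without overlap were 27.4% of all genes, 11.5% higher and 15.9% lower. The median difference of the receptors was 0.04, against -0.05 over all genes tested and 0.35 over the 9 ligands. Ccr2, the receptor of Ccl2 and Ccl7, was dim, at -4.85, -4.69 and -4.63 in carbon tetrachloride livers against -4.70, -5.88 and -6.45 in corn oil livers. It was well above background on 2 of 3 carbon tetrachloride arrays and 1 of 3 corn oil arrays, and the difference of 0.95 ± 0.42 (SE; adjusted p = 0.275) overlapped through corn oil replicate 1. On its other tested probe, A_43_P15552, Ccr2 did not overlap, at -4.91, -4.60 and -4.44 in carbon tetrachloride livers against -5.15, -5.34 and -6.82 in corn oil livers (1.12 ± 0.44, SE; adjusted p = 0.293 over all probes). Ccr7, the receptor of Ccl19 and Ccl21, overlapped (0.03 ± 0.17, adjusted p = 0.933).

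Ccr1 was well above background on 1 carbon tetrachloride array and on no corn oil array, and Ccr4 on none of the 6, so neither was tested. Ccrl2, an atypical receptor that binds chemerin without signalling, did not overlap, at -2.05, -1.77 and -2.05 in carbon tetrachloride livers against -2.76, -2.40 and -2.60 in corn oil livers (0.63 ± 0.14, SE; adjusted p = 0.0940). Ccr10, a receptor of skin and gut homing, was at -6.26, -5.21 and -5.66 in carbon tetrachloride livers, where no array was well above background, against -5.26, -5.07 and -4.96 in corn oil livers (adjusted p = 0.267).

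Of 11 other CC ligands, 7 were tested and 0 passed, with 1 at an unadjusted p below 0.05 and a median difference of -0.05. Ccl9, a rodent chemokine that stands next to Ccl5 in the gene table and acts through Ccr1 in the mouse, was at 6.61, 6.27 and 6.31 in carbon tetrachloride livers against 6.13, 5.80 and 6.16 in corn oil livers (0.37 ± 0.15, SE; adjusted p = 0.252). The groups did not overlap on this probe, and on the other Ccl9 probe they did (0.30 ± 0.19, adjusted p = 0.476 over all probes). Ccl17, which shares the receptor Ccr4 with Ccl22, was at -4.24, -4.86 and -2.32 in carbon tetrachloride livers against -4.96, -3.40 and -4.39 in corn oil livers. As with Ccl22, carbon tetrachloride replicate 3 was the highest array and the groups overlapped (0.44 ± 0.71, adjusted p = 0.762). Ccl1, a ligand of Ccr8, varied more within groups than between them, at -5.81, -7.01 and -3.11 in carbon tetrachloride livers against -4.99, -3.43 and -5.05 in corn oil livers (adjusted p = 0.677). It was well above background on 1 of 3 carbon tetrachloride arrays and 3 of 3 corn oil arrays.

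Of 18 cytokines and transcriptional or RNA-decay regulators known to act on chemokine genes, 12 were tested, 7 higher and 5 lower in direction. In limma 0 passed, with 4 at an unadjusted p below 0.05, all higher. Their median difference was 0.24. Atf3, a stress-induced transcription factor, was at 2.01, 2.17 and 1.45 in carbon tetrachloride livers against -1.41, -0.07 and 0.90 in corn oil livers. The groups did not overlap, but the corn oil livers spread widely (2.07 ± 0.56, SE; adjusted p = 0.132). Irf8, a transcription factor of the monocyte lineage, differed by 0.60 ± 0.21 (adjusted p = 0.205), and Zfp36, which encodes the RNA-decay factor tristetraprolin, by -0.72 ± 0.54 (adjusted p = 0.490). Tnf, an inducer of Ccl2, was at -2.00, -1.83 and -1.31 in carbon tetrachloride livers against -2.35, -2.04 and -2.37 in corn oil livers (0.54 ± 0.21, adjusted p = 0.233), without overlap. Of the other cytokines in the list, Il1b overlapped (-0.09 ± 0.15, adjusted p = 0.764), and Il6 and Ifng were too dim to be tested.

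Of 12 leukocyte adhesion genes, 7 were tested and 0 passed, with 2 at an unadjusted p below 0.05, both higher, and a median difference of 0.43. Itgam, the alpha chain of an integrin of monocytes and neutrophils, was at -2.54, -3.37 and -3.45 in carbon tetrachloride livers against -4.72, -5.71 and -4.89 in corn oil livers (1.99 ± 0.35, SE; adjusted p = 0.0665). It was well above background on 3 of 3 carbon tetrachloride arrays and 2 of 3 corn oil arrays. Itga4, a chain of the integrin that binds Vcam1, was at -1.27, -0.95 and -1.07 in carbon tetrachloride livers against -1.88, -1.74 and -2.14 in corn oil livers (0.82 ± 0.15, adjusted p = 0.0701). Neither gene overlapped, whereas Itgb2, the beta chain that pairs with Itgam, did (0.54 ± 0.38, adjusted p = 0.456).

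**Figure D4:**
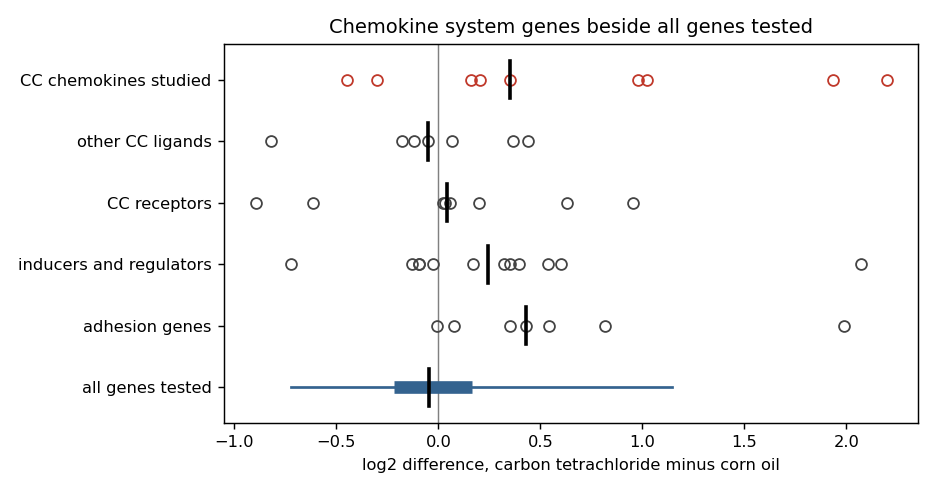
Log2 difference between carbon tetrachloride and corn oil livers (x axis) for each tested gene of the 9 CC chemokines, the other CC ligands, the CC receptors, the inducers and regulators, and the adhesion genes, with black bars at the medians. The lowest row is the spread of all 11939 genes tested, its thick bar holding the middle 50% (-0.22 to 0.16) and its thin line the middle 95% (-0.72 to 1.15). Ccl2 and Ccl7 lie beyond the middle 95% of all genes.

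Marker lists of cells known to make or follow these chemokines did not run one way. Of 12 monocyte and macrophage markers, 11 were tested, 7 higher and 4 lower in direction, and 0 passed, with 3 at an unadjusted p below 0.05 and a median difference of 0.13. Their summed signal was 100.3, 92.0 and 102.9 in carbon tetrachloride livers against 76.4, 77.8 and 76.6 in corn oil livers, without overlap. Without the list's brightest gene, Lyz2, the sum stayed higher, at 60.8 to 63.93 in carbon tetrachloride livers against 57.73 to 59.69 in corn oil livers. Without both Lyz2 and Tyrobp the sum was 31.2 to 32.3 in carbon tetrachloride livers against 32.6 to 38.5 in corn oil livers, the opposite direction. Of 9 Kupffer cell markers, 8 were tested, 1 higher and 7 lower in direction, and 0 passed. At an unadjusted p below 0.05 in limma were 4, Marco higher (0.91) and 3 lower. The summed signal of the Kupffer list was 131.7 to 167.5 in carbon tetrachloride livers against 159.9 to 194.6 in corn oil livers. Of 10 dendritic cell markers 5 were tested, 3 higher and 2 lower in direction, and 0 passed, with a median difference of 0.10. At an unadjusted p below 0.05 were Cd83 (0.90), Fscn1 (0.76) and Clec9a (-0.28). The summed signal of the dendritic list was 2.74 to 3.32 in carbon tetrachloride livers against 1.79 to 2.08 in corn oil livers. Without Cd83 it stayed higher, at 1.636 to 1.745 in carbon tetrachloride livers against 1.159 to 1.253 in corn oil livers. Without both Cd83 and Fscn1 it was 0.415 to 0.440 in carbon tetrachloride livers against 0.4401 to 0.499 in corn oil livers. Over all genes tested, 9.95% were higher at an unadjusted p below 0.05 in limma and 11.5% were higher without overlap. All 9 stellate cell and myofibroblast markers were tested, 7 higher and 2 lower in direction, and 0 passed, with 4 at an unadjusted p below 0.05 and 4 without overlap, all higher. Their sum was 53.1, 52.2 and 36.2 in carbon tetrachloride livers against 30.5, 36.4 and 30.6 in corn oil livers, and without Col3a1 it was 13.4 to 19.7 in carbon tetrachloride livers against 13.9 to 15.5 in corn oil livers. The part of these lists in the levels of Ccl2, Ccl7 and Ccl3 was not tested.

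Genes with the most similar profile were taken as those with the smallest root mean square difference over the 6 arrays, each profile centred on its own mean, among 11100 genes that were well above background on all arrays. For Ccl2 the nearest were Gpr183 (0.31), Slco4a1 (0.38), Prr15 (0.38), Ube2t (0.39) and Trpv2 (0.40). Gpr183, an oxysterol receptor of immune cells, was at -3.41, -3.19 and -2.77 in carbon tetrachloride livers against -4.59, -4.02 and -4.85 in corn oil livers. As for Ccl2, carbon tetrachloride replicate 3 was the highest and corn oil replicate 3 the lowest, a likeness that follows from how Gpr183 was chosen.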

How the data were processed

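Liver RNA of 6 male rats, 3 given carbon tetrachloride and 3 corn oil, (0.2 µg each) was labelled with the dye Cy3 for 1-colour Agilent arrays, per the labels' protocols. Groups came from the treatment label and replicate numbers from the titles, and the labels' treatment text gives 3 animals per group. The deposited scanner files hold an intensity per spot, with background subtracted but arrays not scaled to each other, from Agilent Feature Extraction (version 10.7.1.1 per the file headers, listed as 10.7 by the submitters' processing notes), and flags per spot. The deposited value table holds a ratio, found from the values to be the processed signal divided by a constant near each array's 75th percentile; column medians were 0.103 to 0.11, and its centring on any other basis is not stated.

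Of 61537 non-control probes, 28206 (45.8%) were named through the unversioned RefSeq accession in a GRCr8 gene table; the array design names the older rn4 build, so probes are given no coordinates. Control spots and 26 outlier probes were left out. Log2 signals were reduced by each array's 75th percentile. Testing required signal well above background on 3 or more of 6 arrays, and a gene's brightest such probe stood for it. The group difference was fitted in R 4.3.3 by limma 3.58.1 (lmFit, eBayes, two-sided, Benjamini-Hochberg over all genes or all probes, threshold 0.05). SE and 95% intervals are limma's moderated ones. The precision is limited by 3 arrays per group, and 0 to 4 probes per array were saturated. On simulated data for this comparison (11939 genes, 20 runs of 200 changed genes) a log2 change of 1 was recovered for 60.0% of genes, a change of 2 for 87.6% and a change of 3 for 94.6%, and 4.7% of calls were false. The simulation drew independent normal errors with each gene's own SD and held no slide or animal effect. Its shares therefore need not hold for the real arrays, where treatment and slide are partly confounded. The replicate numbers did not pair the samples: deviations from the group means correlated across genes at -0.05, 0.16 and 0.02 for numbers 1, 2 and 3.

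Alternatives were quantile normalization, median scaling, normexp (offset 50, on median spot signals), the deposited values, other filters on dim probes, the mean of a gene's probes, each probe by itself, a variance trend, array weights, a slide block (fixed, then random), only the first slide, a replicate block, and each array left out in turn. Named genes were the 9 members, the receptors Ccr1, Ccr2, Ccr4 and Ccr7, and up to 3 genes per other list. Those 3 had the largest absolute difference among genes well above background on all arrays of at least 1 group, so dimmer genes with larger differences can be missing. The 5 nearest profiles to Ccl2 were also named (those of Ccl7 are left out, since its corn oil levels were not above background). Ccl11, Ccl12, Tnf, Il1b, Il6, Ifng and the marker genes were added after their values were seen, as were marker sums without their brightest genes. One gene of the lists is not reported here. The members and lists were chosen with earlier results of these data known. Tables and figures used matplotlib 3.10.9, pandas 2.3.3 and numpy 2.4.6 in Python 3.11.15, and the random block used statmod 1.5.0.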

Additional observations from a re-analysis of the deposited data

How the results depend on the processing

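Of the 76 genes that passed over all genes, the count was 217 under normexp, 139 with the filter on all 6 arrays, 156 with a variance trend, 128 with array weights, 4 with slide as a fixed block, 0 on the first slide alone (1598 at an unadjusted p below 0.05 in limma) and 2 to 241 when 1 array was left out, lowest without carbon tetrachloride replicate 2 and highest without carbon tetrachloride replicate 3. It was 6 without carbon tetrachloride replicate 1, and 27, 43 and 5 when corn oil replicates 1, 2 and 3 were omitted in turn. Of the 9 CC chemokine genes, where 0 passed, 1 passed under median scaling, the filter on all 6 arrays, a variance trend, array weights and slide as a random block (Ccl2 in each, adjusted p = 0.0491, 0.0435, 0.0373, 0.0477 and 0.0490), and 1 with probe means or each probe by itself (Ccl7). Under normexp 2 passed (Ccl2 at 1.39 and Ccl5), and leaving out 1 array gave 0 to 2, the 2 being Ccl2 (1.65, adjusted p = 0.0410) and Ccl7 without carbon tetrachloride replicate 3. The 1 Ccl7 probe that passed became 0 under normexp, the filter on all 6 arrays, slide as a fixed block and the first slide alone, 2 with a variance trend, and 0 to 1 when 1 array was left out. With the replicate number as a block, 10 genes, 0 CC chemokine genes and 0 of their probes passed, and the numbers do not pair the samples. The sign turned only for Ccl19 (-0.0052 with slide as a block and on the first slide alone, -0.0081 without carbon tetrachloride replicate 3) and Ccl22 (-0.0052, -0.0052 and -0.12 under the same settings). Leaving out 1 array gave Ccl19 values of up to 0.24 and Ccl22 values of up to 0.42. The other 7 genes kept their sign under every alternative run, Ccl7 lying between 0.55 (normexp, which adds an offset to dim signals) and 2.66; it was not tested under the filter on all 6 arrays. The other list genes tested were 34, but 47 with no filter on dim probes and 29 with the filter on all 6 arrays. Of them 0 passed under any alternative, with 5 to 10 at an unadjusted p below 0.05 in limma. In the main setting 19.7% of all genes had an unadjusted p below 0.05. Other causes of these shifts were not tested. Signal over background limits Ccl7, Ccr2, Ccr1, Ccr4, Ccr10, Ccl1, Itgam, Il6, Ifng and the dimmer probe of Ccl12.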

Other observations

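Ccl12, a monocyte attractant in the mouse, gave different answers on its probes. On probe A_64_P010648 it was at 1.88, 2.34 and 2.73 in carbon tetrachloride livers against 1.99, 2.43 and 2.68 in corn oil livers (-0.05 ± 0.27, SE; adjusted p = 0.942 over all probes). On the dim probe A_44_P1057055 it was at -4.82, -3.54 and -3.23 in carbon tetrachloride livers, where 2 of 3 arrays were well above background, against -5.82, -5.23 and -6.07 in corn oil livers, where 1 of 3 was (1.84 ± 0.44, adjusted p = 0.147). The dim probe did not overlap between groups, and carbon tetrachloride replicate 3 was its highest array, as for Ccl2 and Ccl7.

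Neutrophil markers did not follow the chemokines by animal. Of 8 markers 5 were tested and 0 passed, with 0 at an unadjusted p below 0.05 in limma, and their summed signal was 4.43, 2.69 and 1.56 in carbon tetrachloride livers against 3.36, 6.06 and 2.75 in corn oil livers. Carbon tetrachloride replicate 3, the highest of its group for 8 of the 9 CC chemokine genes, had the lowest neutrophil sum. B cell markers summed to 2.08 to 2.75 in carbon tetrachloride livers against 3.11 to 3.53 in corn oil livers. Without Pax5, the brightest of them, the sums overlapped, at 0.5768 to 0.8226 in carbon tetrachloride livers against 0.8102 to 0.9017 in corn oil livers. The B cell list had 4 of 6 markers tested, all lower in direction and 0 passing, with 1 at an unadjusted p below 0.05 in limma. Over all genes tested, 19.7% had an unadjusted p below 0.05 in limma.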
